A study of Mus musculus with 24 samples.

Results

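The comparison set 3 libraries of the wild-type (WT) maternal-fetal interface (MFI) at gd16.5 (gd, gestation day) against 3 WT libraries at gd14.5, out of 24 bulk RNA-seq libraries in the series. All 6 came from untreated C57BL/6 mice with no engineered allele, and the day of the vaginal plug counted as gd0.5. The MFI is the tissue where the placenta of the fetus meets the decidua of the mother, so each library held RNA of both. The labels name no dam or litter for a library, so p-values measure only the spread between these samples, which may be technical. The same stages of C1qtnf6-KO mice, in which a CRISPR deletion removes C1qtnf6 (the gene of the secreted protein CTRP6), gave 6 further libraries that served as a second set for the same stage difference. The comparison asks which genes and functions change at the interface between mid and late gestation.

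The mouse placenta has a junctional zone, whose spongiotrophoblast and glycogen cells secrete hormones, and a labyrinth, where maternal and fetal blood exchange nutrients, gases and waste. Trophoblast giant cells and junctional zone cells express large gene families of rodents, among them the prolactin family, the pregnancy-specific glycoproteins (Psg) and the placental cathepsins. On the maternal side, decidual natural killer (NK) cells carry perforin and granzymes and become fewer late in gestation, while fetal red cells switch from embryonic to adult globins as the fetal liver takes over blood formation from the yolk sac.

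Total counts lay between 23520602 and 36378830 at gd14.5 and between 22204068 and 25988906 at gd16.5, and 3 counts, taken as the floor of detection, were worth 0.0825 to 0.135 CPM. CPM stands for reads per gene after each library was brought to the same normalized size, and TPM values, used only to compare genes with each other, are also divided by gene length. Defining markers of the tissue were present: Tpbpa of the spongiotrophoblast was at 19914 ± 902 and 20209.7 ± 3551 CPM (mean ± SD, n = 3) at gd14.5 and gd16.5, and the decidual Prl8a2 was at 2297 ± 143 and 1989.5 ± 434 CPM. C1qtnf6 was at 106, 118 and 126 CPM at gd14.5 and at 89.6, 76.6 and 95.7 CPM at gd16.5. In the 6 C1qtnf6-KO libraries it lay between 0.359 and 1.95 CPM, so the targeted gene matched the labels.

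One library stood apart. WT gd16.5 replicate 1 carried transcripts of the yolk sac endoderm, a membrane that lies next to the placenta: the 26 genes of that list found in the table summed to 10110 CPM there, against 580.2 and 606.5 CPM in gd16.5 replicates 2 and 3 and 376.3 to 534.4 CPM at gd14.5. Apob, the main protein of lipoprotein particles, was at 14.7, 28.9 and 24.5 CPM at gd14.5 and at 2463, 60.7 and 22.7 CPM at gd16.5. Of the higher DEGs counted below, 9 (Apoa1, Apoa4, Apob, Cdhr2, Cubn, F2, Lrp2, Slc27a2 and Tph1) were at least 5 times as high in replicate 1 as in either other gd16.5 library; they were picked after their values were seen, and of them F2 and Slc27a2 were also called without it. The yolk sac list had 7 higher DEGs of 21 tested with replicate 1 and 0 without it, beside 3.09% and 2.80% of all genes tested. Its median log2 fold change went from 3.24 to 0.465. Y-linked transcripts summed to 162.6 CPM in WT gd14.5 replicate 3 and 87.61 CPM in WT gd16.5 replicate 1, and to at most 1.339 CPM in the other 4 libraries, so the makeup by fetal sex differed between libraries. Counts of the lists described below that changed without replicate 1 are given both ways.

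Of 17129 genes tested, 963 were differentially expressed genes (DEGs), which is 5.62% (edgeR's quasi-likelihood test, with a p adjusted by Benjamini-Hochberg below 0.05 and a change of more than 1 on the log2 scale). More DEGs were higher at gd16.5 (529 genes, 3.09% of those tested) than lower (434 genes, 2.53%). The groups did not overlap in 956 of the DEGs, beside 43.0% of all genes tested. Genes named below for their fold change, p or level were picked among these, so the trait is no added evidence for them. The change was over 4-fold upward in 110 DEGs and over 4-fold downward in 60, and the median log2 fold change of all genes was -0.0102. Without replicate 1 of gd16.5 there were 929 DEGs (5.33%), of which 488 were higher (2.80%) and 441 lower (2.53%). Of the 963, 790 were called both ways, 427 of them higher and 363 lower, and no higher DEG turned lower.

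**Figure D1:**
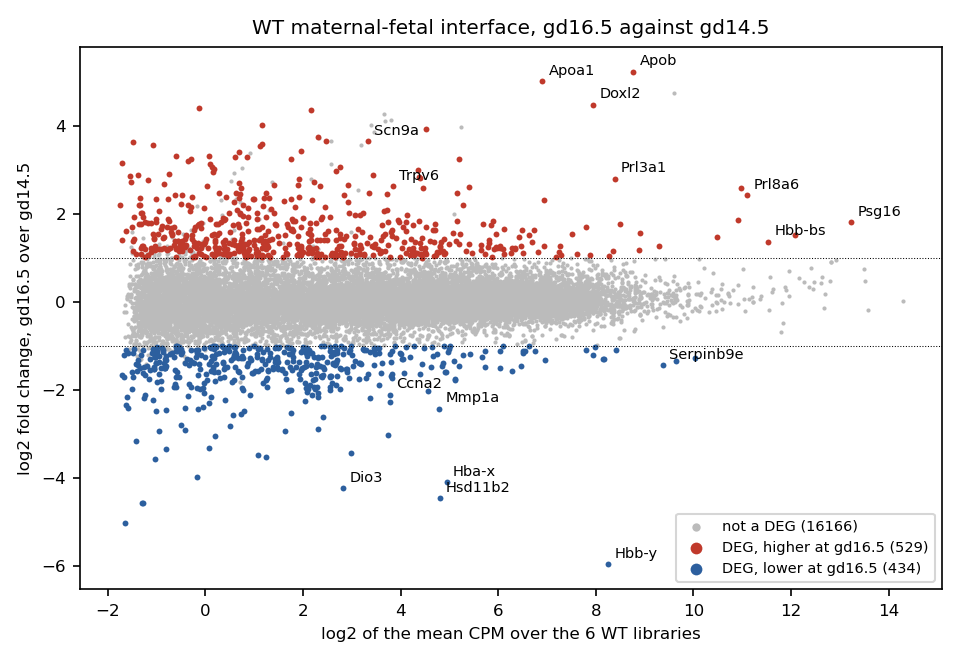
Each point is 1 of the 17129 genes tested in WT, with its mean level over the 6 libraries on the x axis and its log2 fold change (gd16.5 over gd14.5) on the y axis. Red points are the 529 DEGs higher at gd16.5, blue points the 434 lower, and grey points genes that were not called. Hbb-y (-5.98) lies far below the rest of the abundant genes, and Psg16 and Prl8a6 lie among the most abundant of the higher DEGs.

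Hormone and secretory genes of the trophoblast were among the most abundant of the DEGs that rose. Prl8a6, a prolactin-family gene (chromosome 13, 27432681 to 27438688, minus strand, GRCm38), was at 597, 811 and 672 CPM at gd14.5 and at 3636, 4647 and 2789 CPM at gd16.5. Its log2 fold change was 2.41 (SE 0.20, adjusted p = 0.000156), and every gd16.5 library lay above every gd14.5 library. Prl3a1, of the same family, rose from 84.6 ± 14.52 to 586 ± 177 CPM (log2 fold change 2.79, SE 0.23, adjusted p = 0.000143). Among 12 prolactin-family genes assigned to the junctional zone these were the 2 that rose and Prl7a1 was the 1 that fell, beside 3.09% and 2.53% of all genes tested. Prl7a1 went from 302 ± 56.4 to 141 ± 37.5 CPM (log2 fold change -1.09). The other 9 were not DEGs, although Prl7a2 (4429 ± 230.1 and 2728 ± 338 CPM) passed the adjusted p alone.

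The giant cell hormone genes gave 1 higher and 3 lower DEGs among 11 tested, beside 3.09% and 2.53% of all genes tested. Prl5a1 was at 6.80, 5.99 and 6.08 CPM at gd14.5 and at 35.3, 57.2 and 20.2 CPM at gd16.5 (log2 fold change 2.58, SE 0.32, adjusted p = 0.000833). Prl6a1 fell from 22.8 ± 4.44 to 4.64 ± 1.21 CPM (log2 fold change -2.29, adjusted p = 0.000186), and Prl4a1 fell from 125 ± 28.6 to 56.9 ± 11.7 CPM (-1.13). The remaining lower gene, Prl3d2, was under 1 CPM in every library and is 98.5% identical to Prl3d3 over the aligned part of their transcripts, so reads of the pair may be split or left out. Prl3b1, placental lactogen II, was at 27578 TPM at gd14.5 and 33974 TPM at gd16.5, far above these DEGs per length, and did not pass the test (9791 ± 326 and 13571 ± 2358 CPM, log2 fold change 0.47, adjusted p = 0.06).

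The Psg genes encode secreted immunoglobulin-like proteins. Psg16 was at 3784, 4975 and 4094 CPM at gd14.5 and at 16974, 15158 and 12928 CPM at gd16.5 (log2 fold change 1.81, SE 0.17, adjusted p = 0.000211). Psg26 rose from 843 ± 129 to 3044 ± 365 CPM (log2 fold change 1.85, SE 0.15, adjusted p = 0.000128), and it is 95.7% identical to Psg28 over the aligned part of the transcripts. These were 2 DEGs of 13 members tested and none fell, beside 3.09% of all genes tested as higher and 2.53% as lower. Of the 13, 9 passed the adjusted p alone, all as higher, beside 24.6% of all genes in either direction (2400 higher and 1807 lower). All Psg genes together summed to between 30330 and 35700 CPM at gd14.5 and between 55410 and 67380 CPM at gd16.5, so the groups did not overlap. Psg18 and Psg22 passed neither limit (2577 ± 88.9 and 2799.6 ± 274 CPM for Psg18 and 162 ± 18.9 and 151 ± 13.6 CPM for Psg22).

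Placental cathepsins, cysteine proteases of trophoblast, gave 2 higher DEGs and no lower ones among 8 tested, beside 3.09% and 2.53% of all genes tested. Cts6 was at 456, 627 and 632 CPM at gd14.5 and at 3819.8, 4007 and 2476 CPM at gd16.5 (log2 fold change 2.59, SE 0.21, adjusted p = 0.000144). Ctsq, which marks sinusoidal giant cells of the labyrinth, rose from 2246 ± 236 to 6392 ± 1321 CPM (log2 fold change 1.51, SE 0.17, adjusted p = 0.000592). Ctsj, at 11236 TPM and 19238 TPM, was higher per length than both, and it passed the adjusted p but not the fold limit (log2 fold change 0.94, adjusted p = 0.00255). Ctsm was at 1406 ± 27.5 and 1400.0 ± 204 CPM (adjusted p = 0.977).

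Among DEGs with a mean of at least 5 CPM, the log2 fold change of Doxl2, a diamine oxidase-like gene (chromosome 6, 48974963 to 48978746, plus strand, GRCm38), came after only those of Apob and Apoa1. Doxl2 was at 28.2, 20.1 and 15.4 CPM at gd14.5 and at 519, 564 and 339.6 CPM at gd16.5 (log2 fold change 4.48, SE 0.26, adjusted p = 3.56e-05). Scn9a, a voltage-gated sodium channel, was at 1.34, 1.77 and 1.31 CPM at gd14.5 and at 16.48, 19.04 and 20.5 CPM at gd16.5 (log2 fold change 3.65, SE 0.15, adjusted p = 1.46e-05). Both groups were far apart in these 2 genes. With them stood Tent5b (3.66), Dmgdh, which breaks down dimethylglycine (3.06), Il34, a ligand of the Csf1 receptor (2.88), Pgc, progastricsin (2.82), and St8sia2, a polysialyltransferase (2.64). Each was called without replicate 1, and the naming rule had required groups that did not overlap. Kng1 (2.98) was uneven, at 81.2, 16.3 and 10.9 CPM at gd16.5 against 4.66, 4.16 and 4.98 CPM at gd14.5. Without replicate 1 Kng1 was still called, with a log2 fold change of 1.58. F11, coagulation factor XI, went from 11.9 ± 1.36 to 72.5 ± 7.90 CPM and shared its adjusted p of 1.46e-05 with Scn9a and the amino acid transporter Slc1a4. The counting ignored strand and left out reads that fell on more than 1 gene, so reads may be missing from named genes that overlap another gene. Those with a gene on the other strand included Il34 (Gm15894), Ccna2 (Exosc9), Cdca7l (Dnah11) and Timp3 (Syn3). Trf (Gm20425), Spp1 (Gm42793), Prl6a1 (Gm11357) and Klrb1b (Gm44511) overlap a gene on the same strand.

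**Figure D2:**
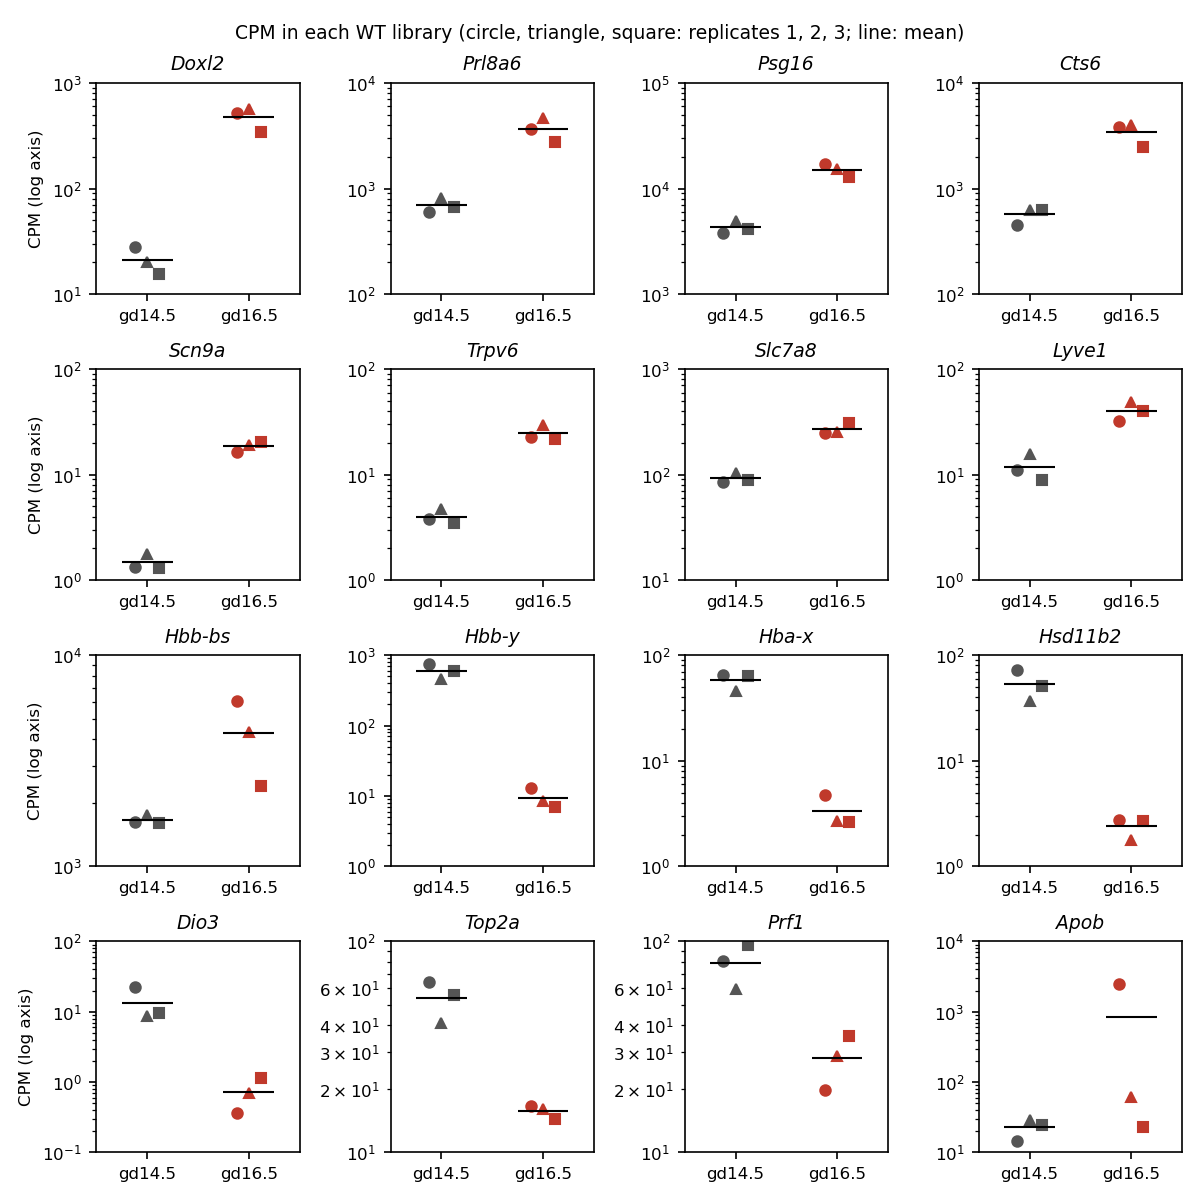
CPM (y axis, log scale) of 16 genes in the 3 gd14.5 and 3 gd16.5 WT libraries; circles, triangles and squares are replicates 1, 2 and 3, and the line is the group mean. Doxl2 to Hbb-bs lie higher at gd16.5 in all 3 libraries, Hbb-y to Prf1 lie lower, and Apob is high in replicate 1 of gd16.5 alone (2463 CPM).

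Embryonic globins fell. Hbb-y, the embryonic epsilon-like beta globin (chromosome 7, 103851749 to 103853216, minus strand, GRCm38), was at 743, 454 and 604 CPM at gd14.5 and at 12.8, 8.61 and 7.05 CPM at gd16.5. Its log2 fold change of -5.98 (SE 0.27, adjusted p = 1.74e-05) was the lowest of the DEGs with a mean of at least 5 CPM. Hba-x, the embryonic zeta globin, was at 64.6, 46.2 and 64.1 CPM at gd14.5 and at 4.75, 2.67 and 2.60 CPM at gd16.5 (log2 fold change -4.11, SE 0.23, adjusted p = 3.56e-05). Hbb-bh1, another embryonic globin, went from 4.38 ± 0.910 to 0.365 ± 0.321 CPM (log2 fold change -3.53, adjusted p = 0.000639). All 3 were lower in every gd16.5 library than in any gd14.5 library.

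The adult beta globins went the other way. Hbb-bs was at 1623, 1753 and 1605 CPM at gd14.5 and at 6085, 4317 and 2408 CPM at gd16.5 (log2 fold change 1.36, SE 0.28, adjusted p = 0.0083). Hbb-bt rose from 202 ± 10.1 to 448 ± 176 CPM; the pair are 94.9% identical over the aligned part of their transcripts. Alas2, the first enzyme of haem synthesis in red cells, rose from 52.0 ± 1.71 to 160.2 ± 64.7 CPM (log2 fold change 1.62, adjusted p = 0.00169). The adult alpha globin Hba-a1 was at 746 ± 10.2 and 1465 ± 594 CPM, with an adjusted p of 0.0202 but a log2 fold change of 0.97.

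In all, 4 of 20 red cell genes rose and 7 fell, beside 3.09% and 2.53% of all genes tested. Besides the embryonic globins those that fell were Car2, carbonic anhydrase II (1144 ± 140.4 to 447 ± 40.3 CPM), Klf1 and Tal1, factors of erythroid cells, and Hemgn; Klf1 and Hemgn had means under 1 CPM at both stages. The summed level of the list was 4401 to 4688 CPM at gd14.5 and 4190 to 9607 CPM at gd16.5, so the groups overlapped, and replicate 1 of gd16.5 was highest. Without that library Hbb-bs kept its call (log2 fold change 1.03, adjusted p = 0.0132), whereas Hbb-bt (0.86), Klf1 and Hemgn were among those no longer called, and 2 higher and 5 lower DEGs were left. The balance also turned on the other gd16.5 libraries, with 6 higher and 5 lower DEGs without replicate 2 and 6 of each without replicate 3.

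The promoters of the embryonic Hbb-y and of the adult Hbb-bs, which moved in opposite directions, are shown from 250 bases before to 50 bases after the RefSeq start site (GRCm38.p6), on their own strand (minus) and with CCAAT and CACCC boxes of either strand (also ATTGG and GGGTG) in capitals. That of Hbb-y is chr7:103853158-103853457 and that of Hbb-bs is chr7:103827879-103828178; the RefSeq start site of Hbb-bs lies inside the span of the gene used for counting.
Hbb-y: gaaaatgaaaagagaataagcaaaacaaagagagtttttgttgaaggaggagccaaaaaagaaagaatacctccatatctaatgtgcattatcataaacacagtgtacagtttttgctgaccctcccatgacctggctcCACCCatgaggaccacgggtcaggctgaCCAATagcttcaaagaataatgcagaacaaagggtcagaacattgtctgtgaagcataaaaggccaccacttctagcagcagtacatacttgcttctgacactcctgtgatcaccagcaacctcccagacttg
Hbb-bs: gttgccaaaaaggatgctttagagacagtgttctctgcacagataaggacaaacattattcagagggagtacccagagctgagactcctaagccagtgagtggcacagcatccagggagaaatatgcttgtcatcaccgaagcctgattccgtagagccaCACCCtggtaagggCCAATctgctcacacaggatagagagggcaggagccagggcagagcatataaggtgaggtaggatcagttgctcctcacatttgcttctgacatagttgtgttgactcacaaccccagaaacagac
Both hold 1 CCAAT box and 1 CACCC box in the forward orientation, beginning at -83 and -111 from the start site in Hbb-y and at -76 and -90 in Hbb-bs. CCAAT was found in 38.3% and CACCC in 63.1% of the 12048 promoters of genes tested, so a match is a description and no binding was measured.

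Genes of the cell cycle fell together. Of the 45 members of a list of S phase and mitosis genes, 25 were DEGs, all lower, beside 2.53% of all genes tested; 42 of the 45 passed the adjusted p alone, all as lower, and all 45 had a negative log2 fold change, with a median of -1.16. Top2a, the topoisomerase that untangles replicated DNA, was at 64.2, 40.9 and 56.0 CPM at gd14.5 and at 16.52, 16.02 and 14.47 CPM at gd16.5 (log2 fold change -1.77, SE 0.16, adjusted p = 0.000186). Ccna2, cyclin A2, had the deepest fall of the list, from 22.4 ± 5.52 to 5.17 ± 0.758 CPM (log2 fold change -2.11, SE 0.19, adjusted p = 0.000202). Mki67, the proliferation antigen Ki-67, fell from 53.2 ± 7.57 to 15.8 ± 2.66 CPM, and Mcm5, a subunit of the replicative helicase, fell from 18.4 ± 3.39 to 4.95 ± 0.398 CPM (log2 fold change -1.89). In bulk tissue, fewer cells of a type and less RNA per cell cannot be told apart, here and for the cell type lists below.

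Other members passed the adjusted p with changes under the fold limit. Pcna, the sliding clamp of DNA synthesis, went from 46.1 ± 5.57 to 35.2 ± 3.40 CPM (log2 fold change -0.39, adjusted p = 0.0284), and Rrm1, a ribonucleotide reductase subunit, from 228 ± 14.6 to 169 ± 15.9 CPM (-0.43, adjusted p = 0.0088). Gmnn, geminin, which blocks a repeat round of replication, was at 15.3 ± 1.53 and 14.4 ± 2.80 CPM and did not pass (adjusted p = 0.713). E2f7 and E2f8, repressors known for their part in the endocycle of giant cells, had log2 fold changes of -0.43 and -0.77 (adjusted p = 0.00853 and 0.00196). Without replicate 1 of gd16.5, 24 of the 45 were called; Mcm2 (-0.98) and Cdc20 (-0.99) no longer passed the fold limit, Mad2l1 newly did, and the median was -1.20.

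The cell cycle genes that fell were also searched for motifs near their start sites. The CHR element TTTGAA, read as its complement TTCAAA on the other strand, is known together with the CCAAT box, or ATTGG, from promoters of genes expressed in G2 and mitosis. Of the 19 lower members with a RefSeq promoter, 13 held TTTGAA in the 300 bases (68.4%) and 16 held CCAAT (84.2%), beside 12.1% and 38.3% of the 12048 promoters of genes tested. Both motifs stood in 12 of the 19 (63.2%), in 14% of the promoters of all lower DEGs, in 3.72% of those of the higher DEGs and in 4.97% of all. The whole tested list, called or not, was itself rich in them. It held TTTGAA in 41.7%, CCAAT in 72.2% and both in 38.9% of its 36 promoters. From those that hold both, with a chromosome left out of the pick, the 3 with the deepest fall are printed. Genes without a RefSeq promoter could not enter. They are shown on their own strand from RefSeq (GRCm38.p6) with both motifs of either strand in capitals: Ttk, a mitotic checkpoint kinase, at chr9:83834439-83834738 (plus strand), Top2a at chr11:99024140-99024439 (minus strand) and Ccnb2, cyclin B2, at chr9:70421505-70421804 (minus strand).
Ttk: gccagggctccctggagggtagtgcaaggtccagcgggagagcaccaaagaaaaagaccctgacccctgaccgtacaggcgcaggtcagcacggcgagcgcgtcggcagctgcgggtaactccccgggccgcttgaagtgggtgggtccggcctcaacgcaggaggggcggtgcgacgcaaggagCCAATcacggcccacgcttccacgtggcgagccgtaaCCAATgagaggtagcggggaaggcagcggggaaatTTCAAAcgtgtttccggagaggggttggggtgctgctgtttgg
Top2a: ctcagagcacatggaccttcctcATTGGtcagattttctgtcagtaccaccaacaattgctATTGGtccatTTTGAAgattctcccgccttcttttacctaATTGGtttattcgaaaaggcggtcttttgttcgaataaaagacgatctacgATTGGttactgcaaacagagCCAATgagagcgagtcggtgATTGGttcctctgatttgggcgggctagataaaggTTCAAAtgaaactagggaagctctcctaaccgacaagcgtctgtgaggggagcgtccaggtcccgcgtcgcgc
Ccnb2: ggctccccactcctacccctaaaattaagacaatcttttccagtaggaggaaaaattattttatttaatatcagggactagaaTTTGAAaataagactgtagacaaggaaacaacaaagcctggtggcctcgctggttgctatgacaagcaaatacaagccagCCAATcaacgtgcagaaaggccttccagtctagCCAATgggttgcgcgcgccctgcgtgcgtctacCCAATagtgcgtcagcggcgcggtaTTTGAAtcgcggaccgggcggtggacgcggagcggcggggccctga
They were chosen for these motifs, so the matches are a description. TTCAAA begins at position 8 after the start site in Ttk and at -23 in Top2a, and TTTGAA begins at 5 in Ccnb2; Top2a and Ccnb2 hold a further TTTGAA at -179 and -167. CCAAT boxes begin at -65 and -28 in Ttk and at -87, -54 and -21 in Ccnb2, and 6 of either strand lie in the part of Top2a shown. Ttk fell from 5.20 ± 0.8999 to 1.26 ± 0.299 CPM (log2 fold change -2.03, adjusted p = 0.000387), and Ccnb2 fell from 7.32 ± 1.01 to 2.14 ± 0.349 CPM (-1.77, adjusted p = 0.000246).

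NK cell genes fell as well. Of 19 members tested, 14 were lower DEGs, 1 (Cd160, a receptor of NK and other lymphoid cells) was higher, beside 2.53% and 3.09% of all genes tested, and the median log2 fold change was -1.30. Prf1, perforin, was at 80.3, 59.7 and 96.4 CPM at gd14.5 and at 19.9, 28.5 and 35.8 CPM at gd16.5 (log2 fold change -1.49, SE 0.22, adjusted p = 0.00174). Gzmb, granzyme B, fell from 42.1 ± 9.44 to 15.2 ± 2.06 CPM (log2 fold change -1.47, SE 0.17, adjusted p = 0.000611). The granzymes Gzmc, Gzmd, Gzme, Gzmf and Gzmg fell too, with log2 fold changes between -1.33 and -1.13, but they are close relatives (Gzmd and Gzme are 93.8% identical over the aligned part), so they are not separate measurements. Receptor genes of the killer cell lectin-like family fell with them, Klrg1 from 6.79 ± 2.40 to 2.15 ± 0.382 CPM (-1.65) and Klrb1b from 3.06 ± 1.02 to 1.00 ± 0.0344 CPM (-1.59).

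All genes of the NK list summed to between 1349 and 2175 CPM at gd14.5 and between 646.8 and 919.4 CPM at gd16.5, without overlap. Ncr1, a defining receptor of NK cells, was too low to be tested, and Il2rb, a cytokine receptor shared with other lymphocytes, passed the adjusted p with a small change (81.5 ± 5.78 and 65.3 ± 6.45 CPM, -0.32). Without replicate 1 of gd16.5, 10 lower DEGs were called, with a median of -1.13; Klrd1 (-0.79), Gzme (-0.98) and Fcrl6 (-0.92) fell short of the fold limit, and Klra7 of the adjusted p. No such fall was seen in the decidual list. None of its 28 members was a DEG, beside 5.62% of all genes tested, and it summed to 6288 to 6474 CPM at gd14.5 and 5447 to 6508 CPM at gd16.5. Hand2, a factor of decidual stroma, was at 33.7 ± 2.55 and 17.7 ± 6.16 CPM (log2 fold change -0.93, adjusted p = 0.0116).

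**Figure D3:**
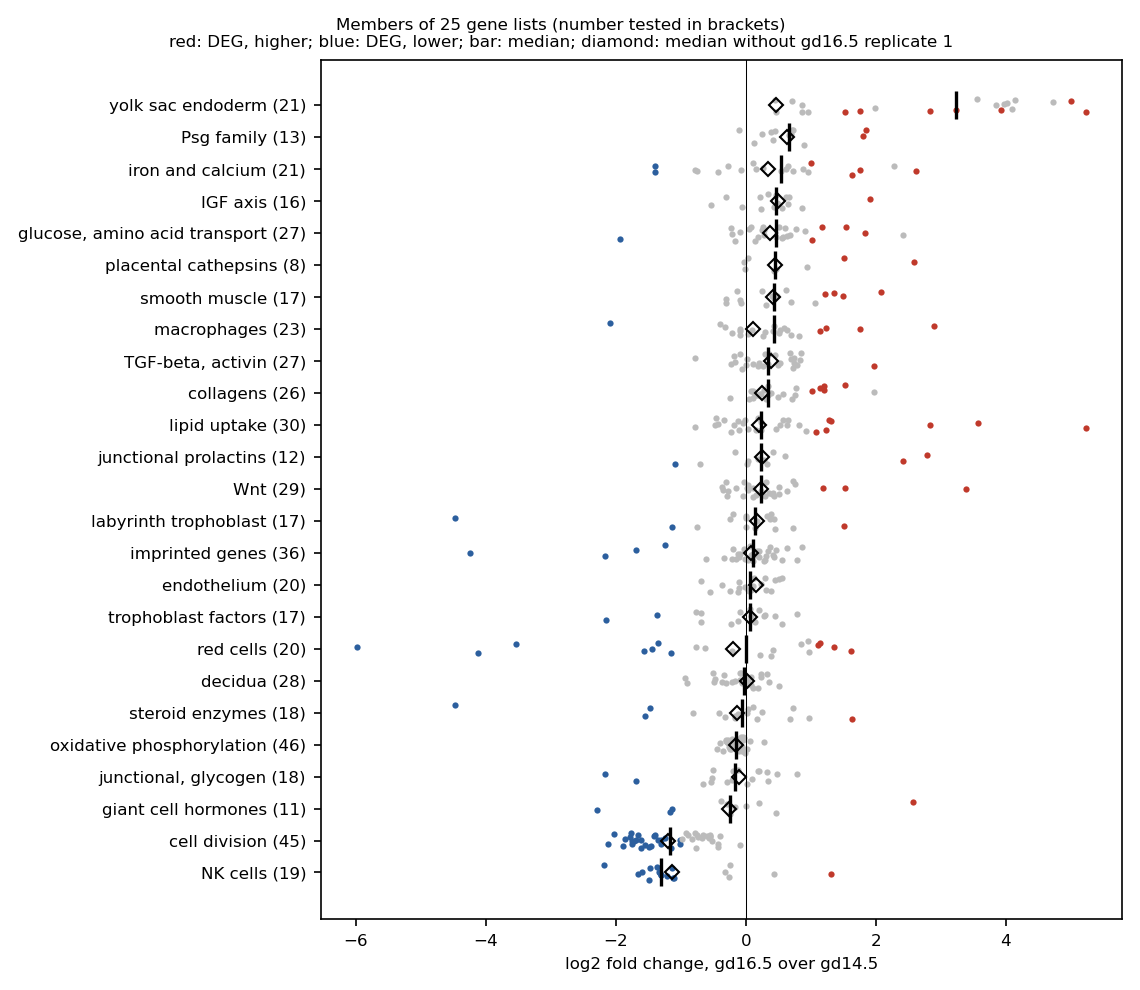
Log2 fold change (x axis, gd16.5 over gd14.5) of every tested member of 25 gene lists, 1 list a line, ordered by median. Red points are higher DEGs, blue points lower DEGs and grey points genes that were not called; the bar is the median and the diamond the median without replicate 1 of gd16.5. The NK cell and cell division lists lie lowest (medians -1.30 and -1.16), and the yolk sac list moves from 3.24 to 0.465 without that replicate.

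Hsd11b2 and Dio3, which encode enzymes that inactivate hormones, fell to low levels. Hsd11b2, which turns active glucocorticoid into its inert form (chromosome 8, 105518755 to 105523988, plus strand, GRCm38), was at 71.8, 36.6 and 51.5 CPM at gd14.5 and at 2.76, 1.77 and 2.696 CPM at gd16.5. Its log2 fold change was -4.47 (SE 0.28, adjusted p = 3.76e-05). Dio3, the imprinted deiodinase that inactivates thyroid hormone, was at 22.3, 8.59 and 9.47 CPM at gd14.5 and at 0.365, 0.689 and 1.13 CPM at gd16.5 (log2 fold change -4.23, SE 0.49, adjusted p = 0.000593). Both genes were lower in every gd16.5 library than in any gd14.5 library. Among 18 steroid enzymes 3 fell and 1 rose, beside 2.53% and 3.09% of all genes tested. Besides Hsd11b2 those that fell were Hsd17b7 (-1.47), also an enzyme of cholesterol synthesis, and Akr1c18 (-1.54), which inactivates progesterone and was under 5 CPM in every library. Sult1e1, the oestrogen sulfotransferase, which also inactivates its hormone, was the 1 that rose, from 12.4 ± 1.96 to 38.4 ± 7.12 CPM (log2 fold change 1.63, adjusted p = 0.000246). Without replicate 1 of gd16.5 2 steroid enzymes rose and 3 fell.

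Some genes of trophoblast lineages fell. Ascl2, an imprinted factor needed for the spongiotrophoblast, fell from 9.95 ± 0.623 to 3.09 ± 0.650 CPM (log2 fold change -1.69, SE 0.16, adjusted p = 0.000238), and Phlda2, an imprinted gene that restrains placental growth, from 8.11 ± 1.61 to 1.80 ± 0.920 CPM (-2.16, adjusted p = 0.00142). Elf5 and Eomes, factors of trophoblast progenitors, fell (-2.15 and -1.36) at means under 5 CPM. They were the 2 DEGs in a list of 17 tested trophoblast factors that did not hold Ascl2, beside 2.53% of all genes tested as lower. Eomes is also expressed by NK cells and stands in their list. Ceacam9, a trophoblast cell surface gene, fell from 23.99 ± 5.52 to 2.90 ± 0.184 CPM (-3.04, adjusted p = 3.56e-05) as the single DEG of 9 Ceacam genes. The factors Tead4 and Cdx2 passed the adjusted p with changes under the fold limit, in opposite directions (0.79 and -0.69), and Gcm1, a factor of syncytiotrophoblast, was at 29.4 ± 3.74 and 29.4 ± 3.34 CPM. Of 36 imprinted genes, 4 fell (Dio3, Phlda2, Ascl2 and Magel2) and none rose, beside 2.53% and 3.09% of all genes tested. Grb10, an inhibitor of insulin and IGF receptor signalling, was higher by the adjusted p alone (279 ± 17.8 and 509 ± 30.2 CPM).

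Several transporters of amino acids and calcium rose. Among 27 glucose and amino acid transporters 4 rose and 1 fell (5 and 1 without replicate 1 of gd16.5), beside 3.09% and 2.53% of all genes tested. By the adjusted p alone 13 passed as higher, beside 2400 of all 17129 genes tested. Slc7a8, a transporter of neutral amino acids, was at 85.5, 103 and 89.7 CPM at gd14.5 and at 250.8, 256 and 306 CPM at gd16.5 (log2 fold change 1.54, SE 0.11, adjusted p = 6.45e-05). Slc1a4 rose from 15.6 ± 0.830 to 55.3 ± 2.49 CPM (1.83), Slc7a1, a carrier of cationic amino acids, from 292 ± 41.7 to 657 ± 144 CPM (1.17) and Slc7a5 from 202 ± 13.3 to 412 ± 86.9 CPM (1.03). The glutamate transporter Slc1a2 fell from 7.78 ± 0.830 to 2.04 ± 0.531 CPM. Slc2a1, the main glucose transporter, was at 879.8 ± 60.7 and 1505 ± 168 CPM, past the adjusted p (0.00168) but not the fold limit (0.77), while Slc2a3 passed neither (0.24, adjusted p = 0.0584).

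Trpv6, an epithelial calcium channel, was at 3.84, 4.70 and 3.47 CPM at gd14.5 and at 22.7, 29.8 and 21.7 CPM at gd16.5 (log2 fold change 2.62, SE 0.16, adjusted p = 3.56e-05). S100g, calbindin-D9k, which carries calcium through the cell, rose from 43.8 ± 9.10 to 136 ± 43.1 CPM (1.63, SE 0.22, adjusted p = 0.00111), and the calcium pump Atp2b1 passed the adjusted p alone (0.62). Of 21 iron and calcium genes 4 rose and 2 fell, beside 3.09% and 2.53% of all genes tested. Without replicate 1 of gd16.5, 3 rose and 1 fell. Steap3, an iron reductase of the transferrin cycle, fell from 42.4 ± 6.95 to 16.1 ± 3.93 CPM (-1.40), whereas the transferrin receptor Tfrc was at 2012, 817 and 1814 CPM at gd14.5 and at 2112, 2970.2 and 2629 CPM at gd16.5 and did not pass (0.73, adjusted p = 0.103). Trf, transferrin, was at 146, 183 and 168 CPM at gd14.5 and at 1190.2, 215 and 273 CPM at gd16.5, and its call was lost without replicate 1 (log2 fold change 1.75, then 0.56).

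Calls among lipid and collagen genes also changed without that library. Of 30 lipid uptake genes 7 rose with it and 4 without it, beside 3.09% and 2.80% of all genes tested. Lpl, lipoprotein lipase, was higher in all 3 libraries to a like extent (18.3 ± 1.29 to 45.6 ± 1.51 CPM, log2 fold change 1.32, adjusted p = 3.56e-05, and 1.33 without replicate 1), whereas Apoe, apolipoprotein E, was at 40.0, 43.2 and 35.0 CPM at gd14.5 and at 150.2, 67.3 and 59.2 CPM at gd16.5. Of 26 collagen genes 5 rose with it and 1, Col8a1 (0.856 ± 0.195 to 2.51 ± 0.183 CPM), without it, beside the same shares of all genes. Calls were also lost when a gd14.5 library was left out. Without gd14.5 replicates 1, 2 and 3 in turn, 2, 3 and 1 lipid uptake genes and 1, 3 and 2 collagen genes rose. Col6a1 was at 8.94, 10.9 and 9.76 CPM at gd14.5 and at 37.2, 12.4 and 18.5 CPM at gd16.5. The yolk sac list, whose defining Afp was at 35.0, 72.7 and 62.6 CPM at gd14.5 and at 4386, 95.6 and 37.9 CPM at gd16.5, was high in replicate 1 of gd16.5, and its part in these results was not tested. Smooth muscle gave 4 higher DEGs of 17 with and without that library, beside 3.09% and 2.80% of all genes tested. Myh11, smooth muscle myosin, rose from 13.7 ± 1.43 to 31.8 ± 3.14 CPM, and Itga8, Myocd and Cnn1 rose at lower levels.

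Signalling genes that rose included 3 of 29 Wnt genes (Wnt10b, Wnt9a and Wnt7b, with log2 fold changes of 3.39, 1.53 and 1.18). None of the list fell, beside 3.09% of all genes tested as higher and 2.53% as lower. Wnt7b, a ligand known for its part in joining chorion and allantois, was at 26.5, 32.0 and 33.8 CPM at gd14.5 and at 72.6, 64.2 and 72.5 CPM at gd16.5 (adjusted p = 0.000164). Bmp4 rose from 3.62 ± 0.322 to 14.3 ± 2.04 CPM (1.98, adjusted p = 6.66e-05) as the single DEG of 27 genes of the activin, BMP and TGF-beta group, of which 12 passed the adjusted p alone as higher and 1 as lower, beside 2400 and 1807 of all 17129 genes tested. Chrdl1, a secreted BMP antagonist, fell from 38.1 ± 3.27 to 9.36 ± 0.580 CPM (-2.03, adjusted p = 2.15e-05). Lepr, the leptin receptor, rose from 756 ± 60.8 to 2101 ± 339.9 CPM (1.47), and Slco2a1, the prostaglandin transporter, from 241 ± 34.0 to 715 ± 119.6 CPM (1.57). Ptgis, prostacyclin synthase, fell from 8.94 ± 0.790 to 2.74 ± 0.485 CPM (-1.70, adjusted p = 0.000194). Hif3a, a factor of the hypoxia response, rose from 9.14 ± 1.10 to 32.4 ± 2.03 CPM (1.82). Aplnr, the apelin receptor, fell from 36.2 ± 2.65 to 13.02 ± 1.62 CPM. It was the single DEG of 29 angiogenic genes, beside 2.53% of all genes tested as lower.

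Of the macrophage genes, 4 of 23 rose and 1, the scavenger receptor Marco, fell, beside 3.09% and 2.53% of all genes tested. Their median log2 fold change was 0.427. Without replicate 1 of gd16.5, where Apoe was no longer called (0.69), 3 rose and 1 fell, with a median of 0.104. Lyve1, a hyaluronan receptor of some macrophages and of lymphatic vessels, was at 11.05, 15.6 and 8.82 CPM at gd14.5 and at 32.0, 49.2 and 40.0 CPM at gd16.5 (1.76, SE 0.21, adjusted p = 0.000743). Csf1, a macrophage growth factor, rose from 25.5 ± 1.73 to 56.1 ± 0.616 CPM (1.14, adjusted p = 4.21e-05). The defining macrophage markers Csf1r and Adgre1 did not pass (adjusted p = 0.061 and 0.461). Among matrix proteases and their inhibitors, Timp2 (71.9 ± 9.08 to 173 ± 27.0 CPM) and Timp3 (58.0 ± 14.4 to 149 ± 19.47 CPM) rose and the collagenase Mmp1a fell from 46.9 ± 2.31 to 8.69 ± 1.52 CPM (-2.43, SE 0.13, adjusted p = 2.15e-05). Mmp1a is annotated as a polymorphic pseudogene and is 90.5% identical to Mmp1b over the aligned part of their transcripts. Among abundant genes that fell were A2m, a protease inhibitor (1489.6 ± 120.4 to 612 ± 309 CPM), Serpinb9e, a serpin of the granzyme B inhibitor family (971 ± 151 to 356 ± 42.4 CPM), and Spp1, osteopontin (467 ± 143 to 218 ± 12.9 CPM).

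No DEG was found in 9 lists: endothelium (20 tested), decidua (28), T and B cells (10), antigen presentation (24), interferon response (38), endoplasmic reticulum folding (31), oxidative phosphorylation (46), and the Y-linked and X inactivation genes (1 each). Of all genes tested 5.62% were DEGs, so lists with few genes tested could hold none at that share. Without replicate 1 of gd16.5 the T and B cell list had 1 lower DEG. In the oxidative phosphorylation list 43 of 46 members had a negative log2 fold change, with a median of -0.151, and 8 passed the adjusted p alone as lower, beside 1807 of all 17129 genes tested. In the interferon list 4 of 38 passed it as higher and 9 as lower, beside 2400 and 1807 of all 17129.

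Levels at the other WT stages place these genes in the course of gestation. They use a normalization over the 12 WT libraries and are a description, since gd14.5 and gd16.5 are part of it. Doxl2 had means of 71.5, 21.9, 490.3 and 1799 CPM in order of stage from gd10.5 to gd19.5, and Prl8a6 had means of 9.90, 717, 3817 and 8444 CPM. Both were highest at gd19.5. The libraries of gd16.5 and gd19.5 overlapped in Psg16, Cts6 and Trpv6: Psg16 was at 15524 ± 2010.0 and 16605 ± 1558 CPM, Cts6 at 3550.3 ± 859 and 4041 ± 347 CPM, and Trpv6 at 25.6 ± 4.66 and 25.7 ± 3.37 CPM. Hbb-y had means of 566 CPM at gd10.5 and 621 CPM at gd14.5, while Dio3 went from 145 to 13.9 CPM between those stages, Ceacam9 from 423 to 24.8 CPM, Ccna2 from 75.2 to 23.2 CPM and Prf1 from 445 to 81.5 CPM. Hbb-bs had its highest mean at gd16.5 (4409 ± 1873 CPM), with 2386 ± 183 CPM at gd19.5.

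**Figure D4:**
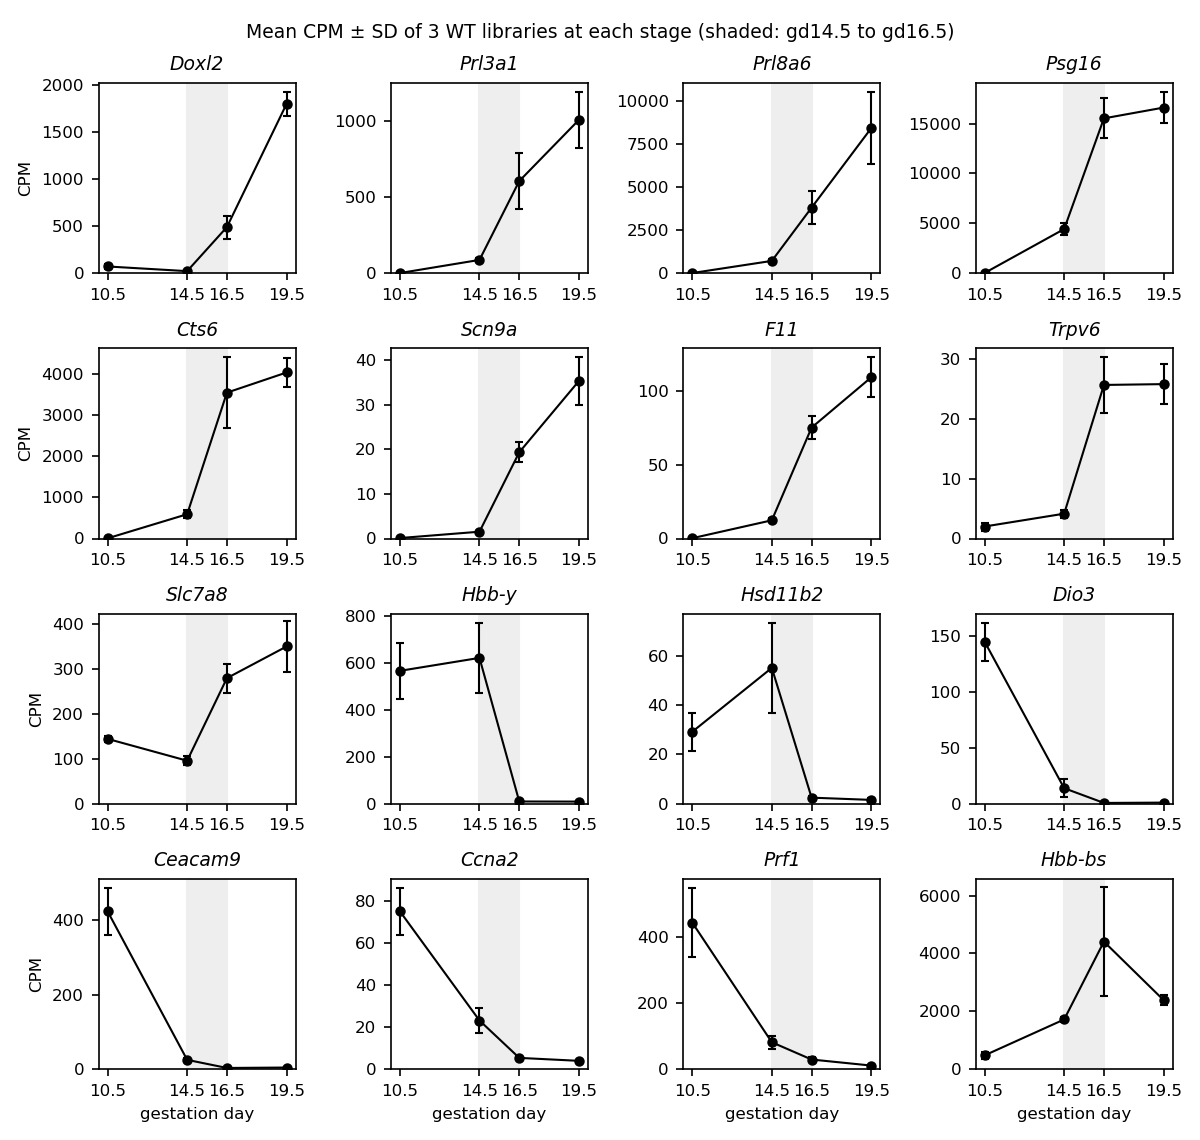
Mean CPM (y axis) with its SD over 3 WT libraries at each of 4 stages from gd10.5 to gd19.5 (x axis) for 16 genes. Doxl2 and Prl8a6 go on to 1799 and 8444 CPM at gd19.5, and Hbb-y stays low after gd14.5 (9.81 CPM at gd16.5 and 9.35 CPM at gd19.5).

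The C1qtnf6-KO libraries, none of which entered the WT fit, showed the same direction in most of these genes. Of the 963 WT DEGs, 929 were tested in C1qtnf6-KO, and 918 of these (98.8%) had the same direction, beside 75.1% of the 16985 genes tested in both genotypes. In C1qtnf6-KO 1421 genes were DEGs (8.08%), of which 851 were higher (4.84%) and 570 lower (3.24%). The 692 genes that were DEGs in the same direction in both were 71.9% of the WT DEGs and 48.7% of the C1qtnf6-KO DEGs. C1qtnf6-KO replicates are numbered here as in the sample descriptions and the count table, and their titles call the same libraries replicates 3, 4 and 5. C1qtnf6-KO replicates 1 and 2 of gd16.5 also carried yolk sac transcripts (9403 and 27340 CPM summed, against 589.9 CPM in replicate 3). Without both of them 930 of the 954 WT DEGs tested had the same direction. The share over all genes was not computed for that fit, and WT gd16.5 replicate 1 stayed among the WT libraries. Across genes, which are not independent replicates, the log2 fold changes of the genotypes had a Pearson r of 0.813.

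**Figure D5:**
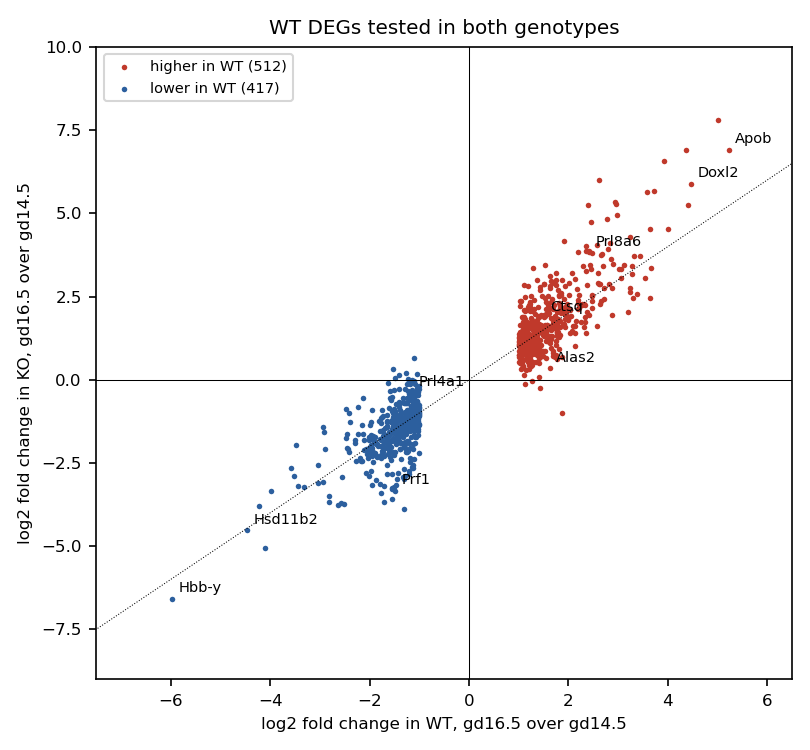
Log2 fold change (gd16.5 over gd14.5) of the WT DEGs tested in both genotypes, in WT on the x axis and in C1qtnf6-KO on the y axis, with higher WT DEGs in red and lower ones in blue. Of the 929 points, 918 have the same sign on both axes.

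No gene passed an adjusted p under 0.05 in the test of the difference between the WT and C1qtnf6-KO stage effects (edgeR, 0 of 18066 genes, smallest adjusted p = 0.528). At an unadjusted p under 0.05 there were 1590 genes (8.80%), and DESeq2 made 19 calls (0.108%). Prl8a6 had a log2 fold change of 2.41 in WT and 3.83 in C1qtnf6-KO (edgeR interaction, adjusted p = 0.528). Prf1 was at -1.49 and -3.34, and Alas2 at 1.62 and 0.36. The study reported less Prf1 and granzyme RNA in C1qtnf6-KO than in WT at gd16.5. For NK genes the C1qtnf6-KO libraries are therefore not a plain second set. In C1qtnf6-KO 31 of the 45 cell cycle genes were lower DEGs, beside 3.24% of all genes tested there, with a median of -1.37. Hbb-y (-6.58), Hsd11b2 (-4.53) and Doxl2 (5.90) had the same direction in C1qtnf6-KO as in WT. The adult Hbb-bs (0.75) and Hbb-bt (0.29) were positive there too, but neither passed edgeR's stage test (adjusted p = 0.115 and 0.566). Of 19 red cell genes tested in C1qtnf6-KO, 0 were higher DEGs and 5 were lower, beside 4.84% and 3.24% of all genes tested there. The rise of the adult beta globins called in WT was thus not called in the second set.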

How the data were processed

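Poly(A) RNA of the MFI was sequenced as paired reads from a stranded library kit. Per the labels and the study's methods, the authors trimmed reads with Trim Galore 0.6.4, aligned them to GRCm38 with STAR 2.7.3a and deposited raw read counts per gene from featureCounts (Subread 2.0.0), run at settings that ignore strand and leave out multi-mapping reads and reads that overlap more than 1 gene. The annotation release is not given in the sources used here; the 123 named genes had the start and end of GENCODE M21. Samples were grouped by their labels, and no column of per-sample values was left out.

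From the deposited counts, genes were filtered with filterByExpr (minimum count 10, minimum total 15), scaled by TMM and tested with edgeR 4.0.16 (quasi-likelihood, R 4.3.3) on the 6 WT libraries, with no covariate. DEGs passed 0.05 after Benjamini-Hochberg adjustment of p and changed by more than 1 on the log2 scale. The C1qtnf6-KO libraries were fitted the same way, and the stage-by-genotype interaction in 1 fit of both. The code was tested on simulated counts. The depth behind each library and its floor of 3 counts, which cover counting error only, open the report. Pairs of replicates differed by more than sampling noise, so none was merged.

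The 42 gene lists (993 genes) and the members named were chosen with earlier results of these data known. Genes named by rule were, among DEGs with groups that did not overlap and a mean of at least 5 CPM, the 12 highest and 12 lowest log2 fold changes, the 5 smallest p-values and the 8 highest TPM in each direction; up to 4 DEGs per list and direction; C1qtnf6; and the 5 smallest interaction p-values. Well-known list members outside this rule (among them Top2a, Mki67, Ccnb2, Gzmb, Tal1 and Hand2) were named after their values were seen. Transcript identities came from BLAST 2.17.0, and promoters from RefSeq (GRCm38.p6), found for 12048 of 17121 tested symbols. Alternatives were other scaling (RLE), filters, thresholds and tools (DESeq2 1.42.0, limma 3.58.1 voom with quality weights), a replicate block, a Y-linked covariate, 1 fit of all 24 libraries and leaving out each library; leaving out C1qtnf6-KO gd16.5 replicates 1 and 2 together was added after seeing the data. Figures were drawn with matplotlib 3.10.9.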

Additional observations from a re-analysis of the deposited data

Results flagged for a closer look

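C1qtnf6 and Gm4610 had gd16.5 libraries all below the gd14.5 libraries in WT and all above them in C1qtnf6-KO; neither difference passed an adjusted p under 0.05 in the edgeR interaction test. The log2 stage difference of C1qtnf6 in WT minus that in C1qtnf6-KO was -1.70 (edgeR, adjusted p = 0.528): it was at 106, 118 and 126 CPM at gd14.5 and 89.6, 76.6 and 95.7 CPM at gd16.5 in WT, and at 0.359, 0.391 and 0.435 CPM and then 0.617, 0.441 and 1.95 CPM in C1qtnf6-KO, where the gene is deleted. For Gm4610, a gene model, the same difference was -0.644 (edgeR, adjusted p = 0.528). It was at 10.4, 9.91 and 11.5 CPM at gd14.5 and 8.16, 9.04 and 8.51 CPM at gd16.5 in WT, and at 9.44, 8.56 and 8.12 CPM and then 11.2, 10.7 and 11.01 CPM in C1qtnf6-KO.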

How the results depend on the processing

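No named DEG changed the sign of its fold change under the alternatives run, but many results were weaker. Of the 123 named genes, 70 were weaker with glmTreat and 17 with all 24 libraries. Without WT gd14.5 replicates 1 and 3 in turn, 25 and 24 were weaker, and 19 without WT gd16.5 replicate 1. The red cell list, with 4 higher and 7 lower DEGs, had 6 and 5 without WT gd16.5 replicate 2, 6 and 6 without WT gd16.5 replicate 3 or with voom, and 4 and 4 with 10 counts in every library; the Ceacam list, with 1 lower DEG, had 2 higher and 1 lower without WT gd16.5 replicate 3, and the steroid enzymes, with 1 higher and 3 lower, had 3 and 3 without that library. Testing against a 2-fold change (glmTreat at log2 1) left 191 WT DEGs (115 higher, 76 lower), and adjusted p alone gave 4207 (2400 and 1807). Without an expression filter 808 were higher. The WT total was 961 with RLE, 943 with DESeq2, 1027 with voom, 934 with the Y-linked covariate and 983 with all 24 libraries; leaving out single libraries gave 764 to 1150 (440 to 669 higher, 324 to 481 lower). Same-numbered libraries did not deviate together (r = -0.093, -0.14 and -0.054), so the numbers were not taken as pairs; with a replicate block there were 905 WT DEGs, 1278 in C1qtnf6-KO, 0 interaction calls and 0 yolk sac DEGs.

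In C1qtnf6-KO glmTreat left 205 DEGs (116 higher, 89 lower), adjusted p alone 4725 (2370 and 2355), an adjusted p under 0.01 817 (447 and 370), and the Y-linked covariate 559 higher. Single libraries left out gave 851 to 1877 (478 to 1195 higher, 373 to 682 lower), with 912 without gd14.5 replicate 1 and 851 without gd14.5 replicate 2; without both gd16.5 replicates 1 and 2, where the lone library was assumed to vary like the others, there were 677 (396 and 281). The interaction gave 143 calls with no filter and 19 with DESeq2.

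Called list members under glmTreat were 9 for cell division, 3 for glucose and amino acid transport, 1 for iron and calcium, 1 for lipid uptake, 3 for red cells, 1 for macrophages, 1 for proteases and 0 for yolk sac, NK cells and collagens. By adjusted p alone they were 42, 14, 12 and 17 for the first 4 of these lists and 11 for proteases. At an adjusted p under 0.01 they were 2 for lipid uptake, 0 for yolk sac, 1 for collagens and 3 for proteases, and with 10 counts in every library 3 for macrophages. Lipid uptake gave 4 with the Y-linked covariate and 2 with all 24 libraries. The yolk sac list gave 18 with no filter, 1 with DESeq2, 3 with voom, 2 with the covariate and 0 with all 24 libraries. Leaving out single libraries gave 3 to 8 for iron and calcium (3 without WT gd14.5 replicate 1 or 3), 1 to 7 for lipid uptake (1 without WT gd14.5 replicate 3), 7 to 12 for red cells, 0 to 16 for yolk sac (15 and 16 without WT gd16.5 replicate 2 or 3, otherwise 0) and 1 to 6 for collagens (1, 3 and 2 without WT gd14.5 replicates 1, 2 and 3). The cause was not tested.

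With 3 libraries a group, an exact permutation test of 1 gene cannot go below p = 0.1, and genes near the floor of 3 counts could not be compared.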
